A study of Mus musculus with 7 samples.

Results

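Transcripts of vascular endothelial cells were followed as traces in CD8 T cells that had been sorted from MCA205 tumours. The set was 10 genes of blood vessel endothelium (Pecam1, Cdh5, Esam, Kdr, Flt1, Tie1, Eng, Emcn, Egfl7 and Vwf), taken by symbol from the 55357 genes of the TPM table, in which each of the 10 had 1 row. MCA205, a mouse fibrosarcoma line of the C57BL/6 background, had been grown under the skin for 14 days in ENT1KO hosts (Slc29a1-/-) or in WT hosts (C57Bl/6), and live CD45+ CD8+ cells were sorted, at least 30000 per condition. There were 4 ENT1KO libraries (replicates 11, 12, 14 and 15) and 3 WT libraries (replicates 1, 2 and 3), made from poly(A)-selected RNA. Wherever single values are listed, they follow that order of replicates. ENT1, encoded by Slc29a1, is a membrane transporter that moves nucleosides, adenosine among them, in and out of cells. The same tumour line was used in both groups, the deletion was carried by the host mouse, and the sources used here give neither the exons it removes nor the age of the mice or their number per library. Nothing in the labels says that each library is a separate animal, so p-values measure the spread between these libraries. The comparison asks whether a host without ENT1 differs from WT in the RNA of its tumour CD8 T cells, and here in the vessel transcripts that came along with them.

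Endothelial cells line blood vessels and hold together through junctional adhesion molecules such as VE-cadherin and PECAM1. Their growth and survival are steered by VEGF acting on the tyrosine kinase receptors VEGFR1 and VEGFR2, by angiopoietins acting on the TIE receptors, and by BMP ligands acting through endoglin. ETS family transcription factors, with the core DNA motif GGAA, switch on many of these genes. A conventional CD8 T cell makes few of these proteins, with PECAM1 (CD31), found on many leukocytes and platelets as well as on endothelium, the best known exception.

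The libraries held 18624318 to 19660792 reads assigned to genes, a number derived from the step size of the deposited normalized counts. Slc29a1 was at 13.2 to 17.6 TPM in ENT1KO libraries, against 49.7 to 58.9 TPM in WT libraries. TPM corrects for transcript length and has a fixed total per library, so levels of different genes can be set side by side. T cell markers were high in every library, with Cd8a at 1047 ± 188 TPM in ENT1KO and 500.8 ± 187 TPM in WT (SD, n = 4 and n = 3) and the summed level of 14 CD8 T cell identity genes at 9105 to 11210 TPM in ENT1KO libraries, against 2857 to 6871 TPM in WT libraries. Markers of other cells were present too and differed between the genotypes. The fibroblast and tumour list without Thy1, which T cells also express, summed to 6.68 to 900.9 TPM in ENT1KO libraries and to 4244 to 8019 TPM in WT libraries (17 of its 17 tested genes lower, 6 of which entered the test only through WT, where they were high). The macrophage and monocyte list without Ccr2, which T cells also express, summed to 121 to 1378 TPM in ENT1KO and to 3672 to 5502 TPM in WT (16 of its 16 tested genes lower, none of which needed WT to enter; of all tested genes 23.1% were lower). In bulk RNA, fewer cells of a type and less RNA per cell cannot be told apart, and the part that these other cells had in the values below was not tested.

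For 9 of the 10 endothelial genes every ENT1KO library lay below every WT library, and Pecam1 lay above in every ENT1KO library. Over all 13798 tested genes, those reaching 1 TPM in 3 or more libraries, the groups did not overlap in 55.2% of genes (24.9% lower and 30.3% higher in ENT1KO), so a gap between the groups is by itself common in these data. For the 9 genes the ENT1KO means lay between 5.83% (Tie1) and 22.8% (Eng) of the WT means. Of the 10 genes, 9 entered the test (limma-trend on log2(TPM + 1), Benjamini-Hochberg adjustment over all 13798 genes), 8 of them lower and 1 higher at an adjusted p under 0.05, where 50.6% of all tested genes passed, 23.1% lower and 27.5% higher. For 6 of these 9 the ENT1KO libraries alone would not have reached 1 TPM in 3 libraries, so they entered the test through WT, where they were high, and their count supports nothing further. Tie1 did not enter, with only 2 WT libraries at 1 TPM or more. The plot of TPM by library shows all values.

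**Figure D1:**
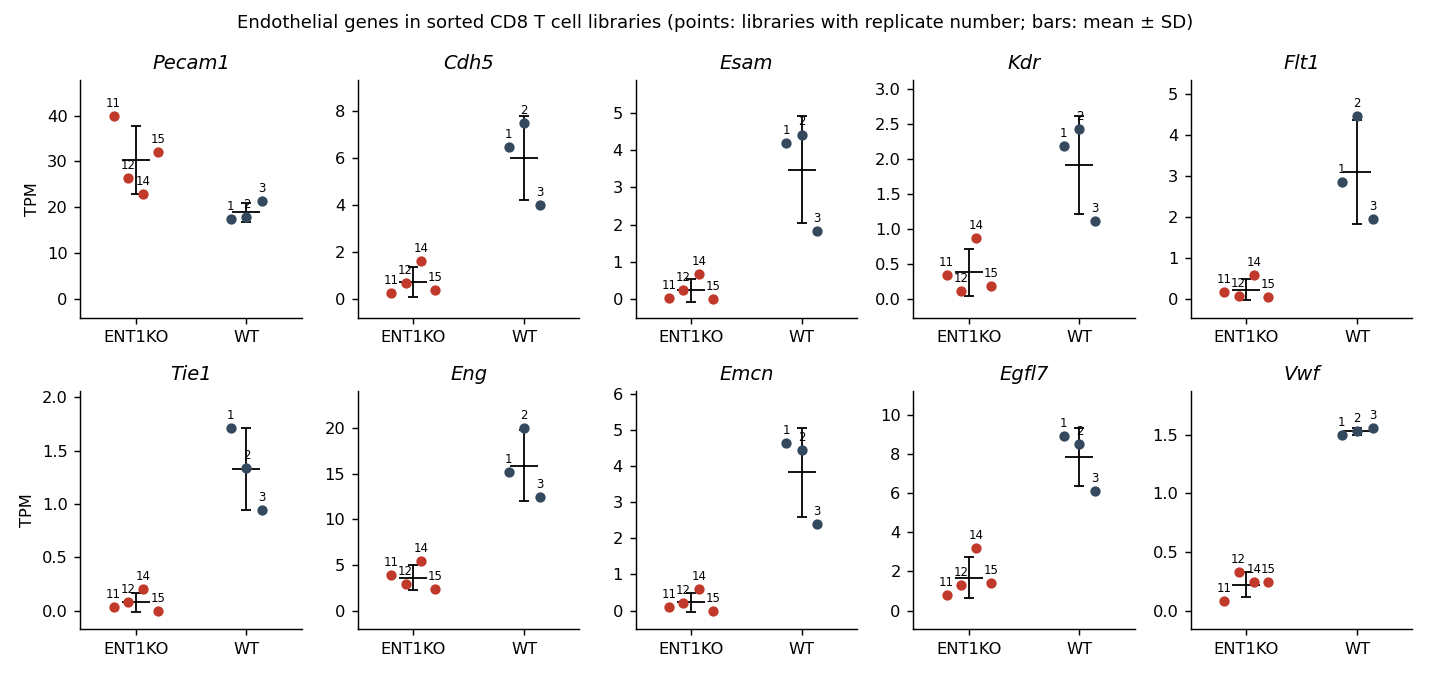
TPM of the 10 endothelial genes (y axis, linear, own scale per gene) in ENT1KO libraries (red, left) and WT libraries (blue, right), with replicate numbers at the points and bars for mean ± SD. Pecam1 is the only panel with the ENT1KO points on top (22.9 to 39.8 TPM against 17.5 to 21.4 TPM), and ENT1KO replicate 14 is the highest red point in 8 of the other 9 panels.

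The DNA before the start sites is shown for those of the 10 genes with a window in the RefSeq promoter table (build GRCm38.p6, another build than that of the expression files). 6 of the 10 genes matched, Egfl7 with 3 windows and Emcn, Eng, Flt1, Kdr and Tie1 with 1 each. The 250 bases before the start of 4 of them, which cover the smallest and largest falls of TPM among the matched genes, are printed 5′ to 3′ in the direction of the gene, with capitals at each AGGAAG or its reverse complement CTTCCT, an extended form of the ETS core. Emcn lies at chr3:137340828-137341077, plus strand, Flt1 at chr5:147726012-147726261, minus strand, Tie1 at chr4:118489850-118490099, minus strand, and Eng at chr2:32646345-32646594, plus strand.
Emcn: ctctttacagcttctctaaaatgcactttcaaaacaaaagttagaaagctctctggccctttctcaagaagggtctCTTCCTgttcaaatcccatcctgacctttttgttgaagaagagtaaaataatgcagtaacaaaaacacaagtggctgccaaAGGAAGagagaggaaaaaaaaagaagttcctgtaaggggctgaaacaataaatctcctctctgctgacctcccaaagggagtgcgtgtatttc
Flt1: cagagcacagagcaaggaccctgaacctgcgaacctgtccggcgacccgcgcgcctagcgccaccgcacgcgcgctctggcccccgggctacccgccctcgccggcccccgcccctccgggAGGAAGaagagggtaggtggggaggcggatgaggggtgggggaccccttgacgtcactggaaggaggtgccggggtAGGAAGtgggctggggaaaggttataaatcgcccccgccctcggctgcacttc
Tie1: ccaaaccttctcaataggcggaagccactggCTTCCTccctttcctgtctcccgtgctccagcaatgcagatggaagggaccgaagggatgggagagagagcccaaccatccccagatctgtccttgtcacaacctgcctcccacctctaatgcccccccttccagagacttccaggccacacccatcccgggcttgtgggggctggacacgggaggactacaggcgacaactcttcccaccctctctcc
Eng: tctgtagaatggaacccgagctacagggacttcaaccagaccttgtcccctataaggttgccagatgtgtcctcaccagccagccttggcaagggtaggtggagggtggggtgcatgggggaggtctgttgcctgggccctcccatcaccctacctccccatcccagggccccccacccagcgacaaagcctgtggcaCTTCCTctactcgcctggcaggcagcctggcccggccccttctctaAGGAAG
AGGAAG on either strand was present in 6 of the 8 windows and in 5 of the 6 genes (not in Kdr, and not in 1 of the windows of Egfl7), while 29.5% of all 32851 windows of the same length hold it. That share is one of windows and is not a measure for the count of genes. Egfl7 supplies 3 of the 8 windows, so these are not independent either. Emcn, Eng and Flt1 had 2 matches each and Tie1 had 1. The bare core GGAA, which lies inside AGGAAG, was found in 8 of the 8 windows and in 93.4% of all windows. These matches describe letters in the windows and show no binding. They do not depend on the expression values, and a part of ETS factors in the falls was not tested.

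Junction genes included both the riser and some of the largest falls. Coordinates given with the genes are those of the authors' files (GRCm39). Cdh5 (ENSMUSG00000031871.10, chr8:104828257-104871143) encodes VE-cadherin, the adherens junction cadherin that defines endothelium. It stood at 0.25, 0.68, 1.64 and 0.39 TPM in the ENT1KO libraries, and at 6.46, 7.46 and 4.00 TPM in the WT libraries. The lowest WT library was thus well above the highest ENT1KO library, replicate 14. Means were 0.74 ± 0.626 TPM (SD, n = 4) and 5.97 ± 1.78 TPM (SD, n = 3), and on the log2(TPM + 1) scale ENT1KO minus WT was -2.03 (SE 0.31, limma adjusted p = 0.002). Adding 1 shrinks the fold change of genes at such low levels, and WT was 8.07 times ENT1KO by the ratio of mean TPM.

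Esam (ENSMUSG00000001946.15, chr9:37439374-37449615), an immunoglobulin-type adhesion molecule of endothelial tight junctions and platelets, was at 0.04, 0.24, 0.67 and 0 TPM in the ENT1KO libraries, and at 4.18, 4.42 and 1.83 TPM in the WT libraries. Replicate 15 of ENT1KO had no read of Esam among its 18993105, which allows up to 3 reads by counting error alone. On the log2 scale the difference was -1.83 (SE 0.29, limma adjusted p = 0.00236), and the WT mean was 14.6 times that of ENT1KO.

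Pecam1 (ENSMUSG00000020717.20, chr11:106545043-106641454) went the other way. It was the most abundant of the 10 genes in each library but WT replicate 2, where Eng was higher. Its levels were 39.8, 26.4, 22.9 and 32.2 TPM in the ENT1KO libraries, against 17.5, 17.9 and 21.4 TPM in the WT libraries. The closest libraries, ENT1KO replicate 14 and WT replicate 3, were 22.9 and 21.4 TPM. Means were 30.3 ± 7.39 TPM and 18.9 ± 2.12 TPM, 1.6 times as high in ENT1KO, with a log2 difference of 0.63 (SE 0.19, limma adjusted p = 0.0232). By the two-sided exact permutation test over all 35 assignments of libraries, p was 0.0571. On the deposited normalized counts the groups overlapped, at 1073 to 1823 in ENT1KO and 882 to 1075 in WT, and the log2 difference was 0.49 (limma adjusted p = 0.0581). Leaving out ENT1KO replicate 15, WT replicate 1 or WT replicate 2 took the adjusted p to 0.0529, 0.0713 and 0.0701 with log2 differences of 0.59, 0.58 and 0.59.

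Pecam1 was also set against T cell genes of the same libraries, all 14 of which rose. The mean log2(TPM + 1) of the 14 identity genes, among them Cd3e, Lck and Trac, was 1.17 higher in ENT1KO than in WT. Set against that mean in each library, Pecam1 was 0.55 lower in ENT1KO on the log2 scale, with overlapping groups (exact two-sided permutation p = 0.143). Per 1000 TPM of the identity list, Pecam1 was at 4.08, 2.35, 2.52 and 3.23 TPM in the ENT1KO libraries, against 3.92, 6.27 and 3.11 TPM in the WT libraries. WT replicate 2, with the lowest identity sum, gave the highest of these ratios. On this relative scale the other 9 genes were lower by 2.23 (Vwf) to 3.21 (Cdh5), each without overlap between the groups. The exact two-sided permutation p was 0.0286 for each, the smallest that 4 against 3 libraries allow. All 14 identity genes were higher and these 9 genes lower in every ENT1KO library, so this lack of overlap was fixed in advance. The rise of the identity mean, 1.17, is part of each of these differences, and their p-values add no support.

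The VEGF receptors were both low. Kdr (ENSMUSG00000062960.11, chr5:76093487-76139118) encodes VEGFR2, the main signalling receptor for VEGF-A. Its levels were 0.35, 0.12, 0.87 and 0.19 TPM in the ENT1KO libraries, and 2.18, 2.43 and 1.12 TPM in the WT libraries. ENT1KO replicate 14 came close to WT replicate 3, the narrowest gap among the genes that were lower in ENT1KO. The log2 difference was -1.07 (SE 0.26, limma adjusted p = 0.01), and the exact two-sided permutation p was 0.0571. After quantile normalization Kdr did not pass, at -0.53 (limma adjusted p = 0.0909).

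Flt1 (ENSMUSG00000029648.14, chr5:147498414-147662821) encodes VEGFR1, which binds VEGF-A, VEGF-B and PlGF, signals weakly, and is also made by monocytes and macrophages. It was at 0.18, 0.09, 0.6 and 0.06 TPM in the ENT1KO libraries, and at 2.87, 4.46 and 1.95 TPM in the WT libraries. The gap between the groups was wider than for Kdr, with WT at 13.3 times the ENT1KO mean against 4.99 times for Kdr. ENT1KO minus WT was -1.71 on the log2 scale (SE 0.26, limma adjusted p = 0.002).

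Tie1 (ENSMUSG00000033191.15, chr4:118328388-118347258), the orphan partner of the angiopoietin receptor TIE2, was the lowest of the 10 genes in both groups by mean TPM. It was at 0.03, 0.08, 0.2 and 0 TPM in the ENT1KO libraries, against 1.71, 1.34 and 0.94 TPM in the WT libraries. In reads, taking 1 step of the normalized counts as 1 read, this was 1, 5, 13 and 0 in ENT1KO and 114, 95 and 59 in WT. The exact two-sided permutation test on log2(TPM + 1) gave p = 0.0286, and a fit of all genes with a value above 0 gave a log2 difference of -1.10 (limma adjusted p = 0.00404). Tek, which encodes TIE2 itself, did not reach the filter and was above 0 in 1 of the ENT1KO libraries (0.1 TPM in replicate 14), against 0.25 to 0.53 TPM in WT libraries.

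Eng (ENSMUSG00000026814.17, chr2:32536607-32572681), the BMP and TGF-beta co-receptor endoglin, which activated macrophages and stromal cells also make, kept the largest share of its WT level. It was at 3.92, 2.87, 5.39 and 2.34 TPM in the ENT1KO libraries, against 15.2, 20.1 and 12.5 TPM in the WT libraries. No ENT1KO library was near 0, in contrast to Esam, Tie1 and Emcn. The log2 difference was -1.89 (SE 0.26, limma adjusted p = 0.00155), and the WT mean was 4.39 times that of ENT1KO. The ratio of Eng to Cdh5 in TPM was 15.7, 4.22, 3.29 and 6.0 in the ENT1KO libraries, against 2.36, 2.69 and 3.12 in the WT libraries, and Eng made up 40.2% to 68.2% of the summed TPM of the 9 genes other than Pecam1 in ENT1KO libraries, against 31.9% to 38.5% in WT libraries. In both of these measures every ENT1KO library lay above every WT library, by narrow gaps (3.29 against 3.12, and 40.2% against 38.5%). Both have Eng as numerator, so they are not separate observations, and they are given without a test or a share over all genes. The ratio of 15.7 rests on 14 reads of Cdh5 in ENT1KO replicate 11.

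Emcn (ENSMUSG00000054690.18, chr3:137046828-137137946) encodes endomucin, a sialomucin on the surface of capillary and venous endothelium. It was at 0.11, 0.2, 0.59 and 0 TPM in the ENT1KO libraries, and at 4.64, 4.44 and 2.41 TPM in the WT libraries. The WT mean was 17.0 times that of ENT1KO, next to Tie1 at 17.2 times. In log2 terms the difference was -1.97 (SE 0.25, limma adjusted p = 0.00138).

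The secreted products were Egfl7 and Vwf. Egfl7 (ENSMUSG00000026921.21, chr2:26470026-26483132) encodes a secreted matrix protein of the vessel wall and carries the miR-126 gene inside its locus. Levels of Egfl7 were 0.79, 1.33, 3.21 and 1.39 TPM in the ENT1KO libraries, against 8.9, 8.49 and 6.12 TPM in the WT libraries. ENT1KO replicate 14 again stood highest in its group. In reads the ENT1KO libraries held only 9, 4, 24 and 7. The log2 difference was -1.78 (SE 0.30, limma adjusted p = 0.00276). The rows of Mir126a and Mir126b are listed at 0 in every library, and poly(A) selection captures mature miRNAs poorly.

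Vwf (ENSMUSG00000001930.18, chr6:125523737-125663642) encodes von Willebrand factor, the clotting glycoprotein that endothelium and megakaryocytes store and release. It was at 0.08, 0.33, 0.24 and 0.24 TPM in the ENT1KO libraries, and at 1.5, 1.53 and 1.56 TPM in the WT libraries. Unlike the other genes, its WT levels were almost the same in TPM. The log2 difference was -1.05 (SE 0.16, limma adjusted p = 0.00198), and after quantile normalization it did not pass, at -0.53 (limma adjusted p = 0.0562).

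TPM and normalized counts gave different pictures for Vwf and Egfl7. Normalized counts of Vwf were 5.08, 7.80, 7.66 and 4.91 in the ENT1KO libraries, against 76.5, 170.3 and 122.5 in the WT libraries, so that the WT libraries, level in TPM, differed in counts. The WT mean was 19.3 times that of ENT1KO in normalized counts and 6.88 times in TPM. For Egfl7 the ratios were 8.01 in normalized counts and 4.66 in TPM. The TPM that a normalized count stood for, after scaling each library to its median over genes, varied 4.48-fold across the 7 libraries for Vwf and 4.09-fold for Egfl7, against a median of 1.16-fold over 12625 tested genes above 0 in every library and 1.04-fold for Pecam1. Only 1.37% of these genes varied more than Vwf. The cause of this spread was not tested.

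The direction of the 9 genes held on both scales, as the plot of log2 differences shows. In the authors' deposited table, which is based on the counts, the 9 genes had log2 fold changes from -4.28 (Tie1) to -2.41 (Eng), with adjusted p from 3.57e-17 for Vwf to 0.000129 for Kdr. Of its 18878 genes with an adjusted p, 25.8% were lower in ENT1KO and 16.5% higher at 0.05, and Pecam1 was among the higher ones at a log2 fold change of 0.52 (SE 0.21, adjusted p = 0.0372). On log2(normalized count + 1) with limma-trend, where 28.0% of genes were lower and 21.0% higher, the 8 lower genes of the main test had log2 differences between -4.63 (Emcn) and -2.44 (Eng). The median of all tested genes was lower by 0.145 on that scale than on TPM.

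**Figure D2:**
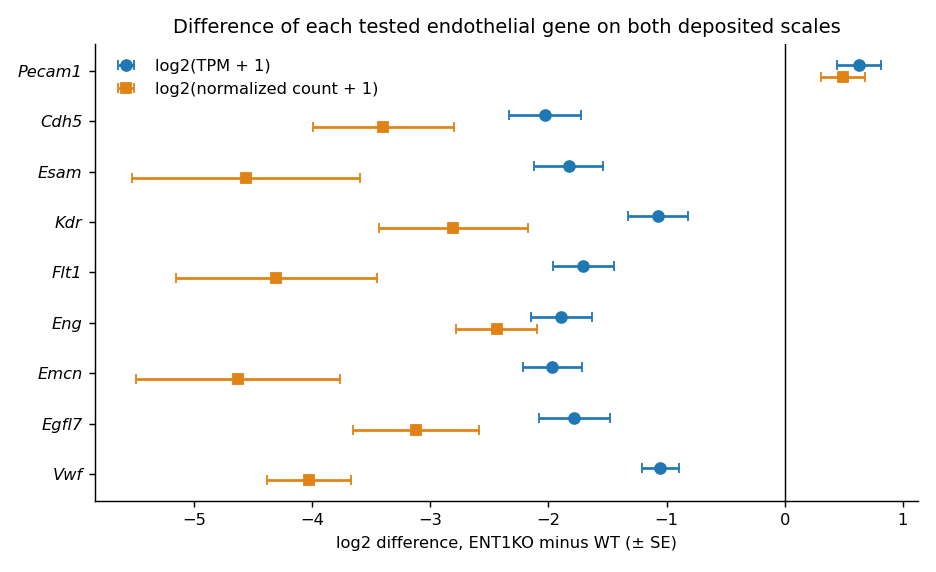
Log2 difference, ENT1KO minus WT, with SE, for the 9 tested endothelial genes on log2(TPM + 1) (blue circles) and log2(normalized count + 1) (orange squares), from limma-trend with 4 ENT1KO and 3 WT libraries. Only Pecam1 lies right of 0, and the low genes Esam, Flt1, Emcn and Vwf move furthest between the scales (Vwf -1.05 and -4.03).

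By mean TPM the order of levels was Pecam1, Eng, Egfl7 and Cdh5 at the top and Vwf and Tie1 at the bottom in both groups. In ENT1KO libraries Pecam1 stood clear of all others, Eng (3.63 ± 1.34 TPM) and Egfl7 (1.68 ± 1.06 TPM) followed, and the other 7 genes averaged less than 1 TPM. Below Pecam1, each gene's ENT1KO range overlapped that of the next in the order. In WT libraries Pecam1 (18.9 ± 2.12 TPM) and Eng (15.9 ± 3.85 TPM) overlapped and lay above Egfl7 (7.84 ± 1.501 TPM). From Egfl7 downwards the WT ranges of neighbours overlapped, through Cdh5 (5.97 ± 1.78 TPM), Emcn (3.83 ± 1.23 TPM), Esam (3.48 ± 1.43 TPM), Flt1 (3.09 ± 1.27 TPM), Kdr (1.91 ± 0.696 TPM) and Vwf (1.53 ± 0.03 TPM) to Tie1 (1.33 ± 0.385 TPM).

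Within each genotype the libraries came in a like order for most genes. Among the 9 genes other than Pecam1, ENT1KO replicate 14 was the highest of its group for 8 genes (Vwf, highest in replicate 12, was the exception), and replicate 15 the lowest for 5 genes. Esam, Tie1 and Emcn were all 3 at 0 in replicate 15 and above 0 in the other libraries. In WT, replicate 3 was the lowest for 8 of the 9 genes and replicate 2 the highest for 5. Summed over the 9 genes, the level was 5.75, 5.94, 13.4 and 4.61 TPM in the ENT1KO libraries, against 47.7, 54.6 and 32.4 TPM in the WT libraries. The fibroblast and tumour list without Thy1 and the macrophage list without Ccr2 were likewise highest in replicate 14 and lowest in replicate 15 of ENT1KO, and highest in replicate 2 and lowest in replicate 3 of WT.

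**Figure D3:**
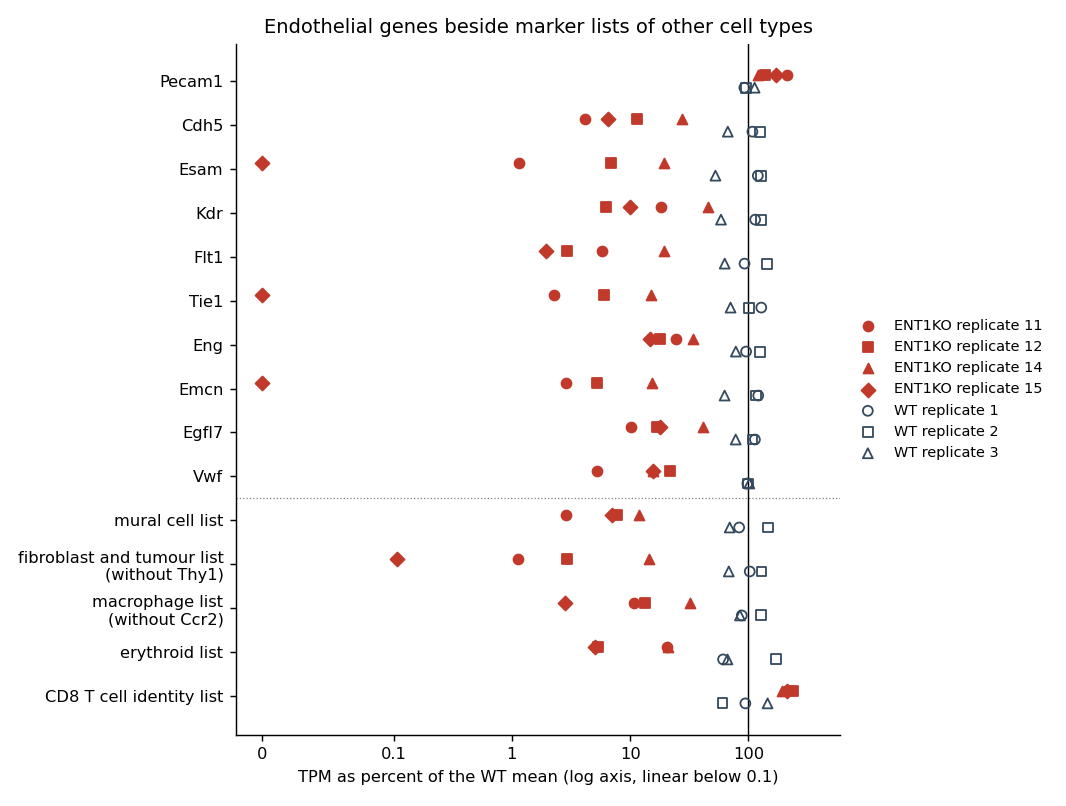
TPM of each endothelial gene (upper rows) and summed TPM of marker lists of other cells (lower rows) in each library, as percent of the WT mean on a log axis that is linear below 0.1, with ENT1KO in filled red and WT in open blue symbols. In ENT1KO the 9 genes other than Pecam1 averaged 5.83% to 22.8% of the WT mean, Pecam1 160.0%, and Esam, Tie1 and Emcn were at 0 in replicate 15.

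The gap in the 9 genes other than Pecam1 is set beside that of other cell types here. Eng, which macrophages and stromal cells also make, was 40.2% to 68.2% of their sum in ENT1KO libraries. In WT libraries it was 31.9% to 38.5%, and its part in the ratios below was not tested. The WT mean was 6.05 times the ENT1KO mean for the 9 summed endothelial genes, 21.4 times for the fibroblast and tumour list without Thy1, 13.5 times for the mural cell list of pericytes and smooth muscle, 6.8 times for the macrophage list without Ccr2 and 7.74 times for the erythroid list. The mural list keeps its riser, Kcnj8, which lowers its ratio. Kcnj8 averaged 10.9 TPM of the list's 19.6 TPM in ENT1KO, and 2.86 TPM of 265.6 TPM in WT. The mural ratio is thus not alike to those of the lists without their risers. Some of these ratios rest on 1 library. Without ENT1KO replicate 14 the ratio was 71.7 for the fibroblast and tumour list, 11.1 for the macrophage list and 8.26 for the 9 endothelial genes, and without WT replicate 2 it was 4.94 for the erythroid list. For each 1000 TPM of the fibroblast and tumour list, the 9 endothelial genes held 82.1, 32.4, 14.9 and 690.0 TPM in the ENT1KO libraries, against 7.47, 6.81 and 7.63 TPM in the WT libraries. All 4 ENT1KO ratios were therefore above those of WT, and varied far more among them. For each 1000 TPM of the macrophage list the values were 12.2, 10.3, 9.73 and 38.0 TPM in ENT1KO and 12.5, 9.93 and 8.82 TPM in WT, so that ENT1KO replicate 15 stood apart and the other 6 libraries lay between 8.82 and 12.5 TPM. For Cdh5 alone, per 1000 TPM of the macrophage list, ENT1KO libraries had 0.532, 1.18, 1.19 and 3.22 TPM and WT libraries 1.7, 1.36 and 1.09 TPM, with overlapping groups. These sums were chosen with the values in view and are given without a test.

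**Figure D4:**
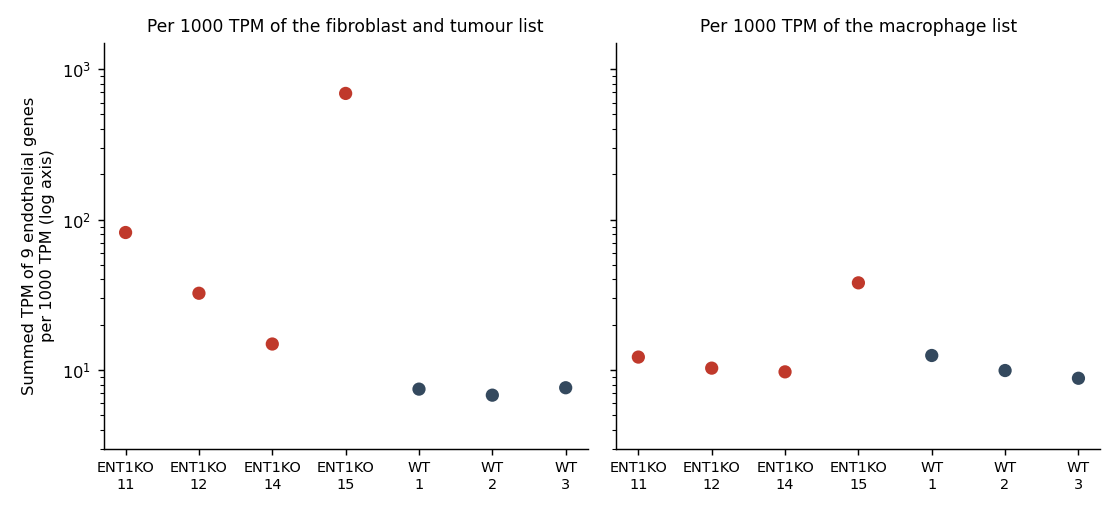
Summed TPM of the 9 endothelial genes other than Pecam1 per 1000 TPM of the fibroblast and tumour list without Thy1 (left) and of the macrophage list without Ccr2 (right), on a log axis, per library (ENT1KO red, WT blue). Against fibroblast transcripts the ENT1KO libraries lie at 14.9 to 690.0 and WT at 6.81 to 7.63, while against macrophage transcripts ENT1KO replicates 11, 12 and 14 lie at 9.73 to 12.2 and WT at 8.82 to 12.5.

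A list of 35 further endothelial genes was mostly lower. In 26 of the 35 all ENT1KO libraries lay below all WT libraries, in 0 above, and 9 overlapped. Among all tested genes 24.9% lay below in this way, but 21 of the 35 were under the filter, so these shares are not alike. There were 14 that reached the filter, of which 11 fell and 2 rose, where 23.1% of all tested genes were lower and 27.5% higher. Their median log2 difference was -1.88 against 0.145 over all tested genes, and 10 of the 14 entered through WT. Apln, the apelin peptide of growing vessels, was at 1.11 ± 1.32 TPM in ENT1KO and 21.9 ± 9.60 TPM in WT (limma adjusted p = 0.00156). Cd34, a sialomucin of endothelium and stromal progenitors, was at 4.3 ± 5.77 TPM in ENT1KO and 78.2 ± 32.1 TPM in WT (limma adjusted p = 0.0039), and Cd93, a C-type lectin of endothelium and monocytes, at 5.53 ± 1.62 TPM in ENT1KO and 22.7 ± 4.42 TPM in WT (limma adjusted p = 0.00126). The risers were Rgcc, a cell cycle regulator (73.2 ± 18.6 TPM in ENT1KO and 41.7 ± 9.38 TPM in WT, limma adjusted p = 0.0207), and Icam2, an adhesion molecule that lymphocytes share (22.1 ± 4.90 TPM in ENT1KO and 13.6 ± 2.99 TPM in WT, limma adjusted p = 0.0313). Neither rise passed without ENT1KO replicate 11 (limma adjusted p = 0.054 for Rgcc and 0.0788 for Icam2), without WT replicate 1 (0.067 and 0.103) or without WT replicate 2 (0.0798 and 0.0908). The groups overlapped for both Rgcc and Icam2. Icam2 was also lost without ENT1KO replicate 14 or 15 (limma adjusted p = 0.0671 and 0.0595) and with no filter (limma adjusted p = 0.0614). Of the 35, 19 were at 0 in ENT1KO replicate 15 and 1 in ENT1KO replicate 14, against 0 in WT replicates 1 and 2 and 2 in WT replicate 3.

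Of 15 genes for VEGF and angiopoietin ligands and partner receptors, 14 were tested, 12 fell and none rose at an adjusted p under 0.05 (median -2.16). Among all tested genes 23.1% were lower and 27.5% higher. Of the 14, 7 entered the test only through WT, where they were high, Vegfc and Angpt2 among them, so the count describes these genes and supports nothing further. Vegfa, the main ligand of VEGFR2, was at 8.73 ± 5.02 TPM in ENT1KO and 91.7 ± 33.6 TPM in WT (limma adjusted p = 0.00147). Vegfc, a ligand of lymphatic VEGFR3, was at 0.373 ± 0.422 TPM in ENT1KO and 8.27 ± 2.61 TPM in WT, and Angpt2, the angiopoietin that endothelium releases, at 0.0875 ± 0.0597 TPM in ENT1KO and 2.27 ± 0.461 TPM in WT (limma adjusted p = 0.00121 for both). Nrp1, a VEGF co-receptor that T cells can also carry, was at 39.5 ± 12.8 TPM in ENT1KO and 39.7 ± 3.82 TPM in WT (limma adjusted p = 0.85).

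Of 20 genes of the BMP and endoglin pathway 14 were tested, with 7 falls and 3 rises (median -0.61). The share of rises was 21.4%, against 27.5% of all tested genes, and that of falls 50.0%, against 23.1%, with 1 of the 14 entering only through WT. Bmpr1a, a BMP type I receptor, was at 2.73 ± 0.720 TPM in ENT1KO and 11.1 ± 3.04 TPM in WT (limma adjusted p = 0.0017), and Smad1, which carries the BMP signal to the nucleus, at 6.51 ± 0.988 TPM in ENT1KO and 16.7 ± 4.18 TPM in WT (limma adjusted p = 0.00242). Id2 and Tgfbr2, which T cells express strongly, were at 393.5 ± 104 and 107 ± 10.8 TPM in ENT1KO, against 218 ± 48.7 and 73.3 ± 16.6 TPM in WT (limma adjusted p = 0.0185 and 0.0195). On normalized counts 1 of the 3 rises passed, Id2, at a log2 difference of 0.69 (limma adjusted p = 0.0377). Without WT replicate 2 neither Id2 nor Tgfbr2 passed on TPM (limma adjusted p = 0.0657 and 0.0648), and without WT replicate 1 Tgfbr2 did not (0.0617).

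Among 22 transcription factors of endothelium, 15 were tested, with 7 falls and 4 rises (median -0.25). The share of rises, 26.7%, was close to the 27.5% of all tested genes, and the share of falls was 46.7% against 23.1%, with 3 of the 15 entering only through WT. Gata2 and Lmo2, blood and vessel lineage factors, were at 0.375 ± 0.346 and 2.11 ± 1.06 TPM in ENT1KO, against 6.57 ± 2.41 and 14.9 ± 2.75 TPM in WT (limma adjusted p = 0.0013 and 0.00121). Ets1, an ETS factor that T cells express at high level, was at 319 ± 71.1 TPM in ENT1KO and 164 ± 65.3 TPM in WT (limma adjusted p = 0.0186), while Klf2, shared by resting T cells and endothelium, did not pass (156.5 ± 70.2 TPM in ENT1KO and 126.0 ± 34.8 TPM in WT, limma adjusted p = 0.527). Erg, the ETS factor most typical of endothelium, stayed under the filter, at 0 to 0.19 TPM in ENT1KO libraries and 0.73 to 1.02 TPM in WT libraries.

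Junction partner genes had 10 falls and 1 rise among 14 tested of 17 matched genes (median -0.87). Over all tested genes 23.1% were lower and 27.5% higher, and 5 of the 14, Magi1 among them, entered only through WT. Ctnnd1, the p120 catenin that stabilises VE-cadherin, was at 1.998 ± 1.79 TPM in ENT1KO and 23.5 ± 4.47 TPM in WT (limma adjusted p = 0.00171), and Magi1, a junction scaffold, at 0.108 ± 0.137 TPM in ENT1KO and 1.86 ± 0.507 TPM in WT (limma adjusted p = 0.00167). Ctnnb1, the beta-catenin that most cells use, was at 164 ± 16.9 TPM in ENT1KO and 202 ± 20.9 TPM in WT (limma adjusted p = 0.0692), though its difference of -0.55 in normalized counts passed as lower (limma adjusted p = 0.00752). The riser was Ptpn6, the SHP-1 phosphatase of leukocytes (295 ± 30.5 TPM in ENT1KO and 193 ± 51.6 TPM in WT, limma adjusted p = 0.0187), a call that was lost without WT replicate 1 or WT replicate 2 (limma adjusted p = 0.0596 and 0.0602).

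Markers of cells that share or surround these genes are given for comparison. Of all tested genes 23.1% were lower and 27.5% higher in ENT1KO at an adjusted p under 0.05. Of 14 mural genes 7 were tested, 6 fell and 1 rose, and 5 of the 7 entered only through WT. Among the falls was Acta2, smooth muscle actin, which passed the filter on ENT1KO libraries too and was at 5.34 ± 6.95 TPM in ENT1KO and 188 ± 82.7 TPM in WT (limma adjusted p = 0.00233). The riser, Kcnj8, a potassium channel subunit listed here as a pericyte marker, was at 10.9 ± 5.63 TPM in ENT1KO and 2.86 ± 1.12 TPM in WT (limma adjusted p = 0.0132, and 0.0549 without WT replicate 2). It did not follow the other mural genes. Kcnj8 was highest in ENT1KO replicate 15, at 17.8 of the 18.7 TPM of the whole list, where 8 of the 14 mural genes were at 0. Which cells its RNA came from was not tested. The platelet and megakaryocyte list, of interest because platelets carry Pecam1, Esam and Vwf, had 12 genes, of which 3 were tested and 1 fell. That gene was Pf4, a platelet chemokine also made by macrophages (5.87 ± 5.54 TPM in ENT1KO and 66.03 ± 23.9 TPM in WT, limma adjusted p = 0.00366), and 1 of the 3 tested genes entered through WT. Over all 12 genes, 3 lay lower in every ENT1KO library than in every WT library (Pf4, Ppbp and Gp1bb) and 9 overlapped. This count is near the share over all tested genes, of which 24.9% lay lower in this way, and Ppbp and Gp1bb were under the filter. Ppbp and Gp1bb, a platelet chemokine and a subunit of the von Willebrand factor receptor, were listed at 0 TPM in the 4 ENT1KO libraries, against 0.32 to 1.04 TPM and 0.3 to 0.62 TPM in WT libraries. Itga2b, the platelet integrin alpha chain, was at 0.52 to 1.13 TPM in ENT1KO libraries and 1.01 to 1.73 TPM in WT libraries, while Gp9 and Gp6 were listed at 0 TPM in every library. The part of platelet RNA in the values of Pecam1, Esam and Vwf was not tested. All 5 tested erythroid genes fell, and 1 of them entered only through WT. Hbb-bs, a beta-globin that passed the filter in both groups, was at 65.2 ± 44.05 TPM in ENT1KO and 523.5 ± 326 TPM in WT (limma adjusted p = 0.00551).

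The genes with the level pattern most like 3 of the members were looked up among 11756 protein-coding genes with a mean of at least 1 TPM, by the root mean square difference of centred log2(TPM + 1) over the 7 libraries. For Eng the nearest was Cd93 (0.06), then Tspan4 (0.1) and Plbd1 (0.103). Cdh5 had Mecom (0.0775), Maf (0.0906) and Obsl1 (0.0924) nearest, and Pecam1 had Pcgf1 (0.0848), Tet1 (0.0953) and Mturn (0.0953). The likeness is a description only.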

How the data were processed

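CD8 T cell RNA (75 ng, poly(A)-selected, per the labels' protocols) was sequenced. Tools named in the submitters' processing notes are DESeq, DESeq2 1.30.1, RSEM, STAR 2.7.1a and Trimmomatic (0.35 and 0.38), with GRCm39 as the build and no roles stated. The authors deposited TPM per gene and a table of their own comparison. That deposited table holds normalized counts (a signal: reads over a size factor), log2 fold changes with their errors, a test statistic (a score) and raw and adjusted p-values. Its normalized counts were whole multiples of the smallest value of their column (tolerance 0.01), and read numbers take 1 such step as 1 read. For WT replicates 1 and 3, whose step is close to 1, that was not established independently, so their read numbers rest on this assumption, and no count test was run.

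The main test was limma-trend (limma 3.58.1 under R 4.3.3, robust empirical Bayes, genotype alone) on log2(TPM + 1) of 13798 genes with 1 TPM or more in 3 libraries, p-values being adjusted by Benjamini-Hochberg. The test was also run on simulated data with normal noise and few changed genes. Here many genes were called and most members lay near 0 TPM in ENT1KO, so that run lends these results no support. Single values were compared by two-sided exact permutation. Read floors cover counting error only. Alternatives were pseudocounts of 0.1 and 5, a 5 TPM filter, no filter, quantile normalization, normalized counts, protein-coding genes, array weights and each library left out. All members are named. The rule for other lists names the 2 genes with the highest mean TPM and the 2 with the smallest p, of which the text gives some. Tek, Erg, Icam2, Kcnj8, Ppbp, Gp1bb, Itga2b, Gp6, Gp9, Cd8a, Cd3e, Lck and Mir126a and Mir126b were picked with their values in view. The members and lists were chosen with earlier results of these data known, and the sums without Pecam1, Thy1 or Ccr2 were added after seeing the data. Promoter windows come from RefSeq (GRCm38.p6).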

Additional observations from a re-analysis of the deposited data

Results flagged for a closer look

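4 of 32 sets of 4 ENT1KO values had 1 library far from the other 3, by a gap to its neighbour above Dixon's critical value, which chance gives in about 1 of 20 sets. The sets share libraries and genes, so they are not independent. The summed TPM of the 9 endothelial genes other than Pecam1 was 13.4 in ENT1KO replicate 14, against 4.61 to 5.94 in the other 3 ENT1KO libraries. The other 3 values belong to ENT1KO replicate 15. Per 1000 TPM of the fibroblast and tumour list without Thy1, the 9 genes held 690.0 TPM there, against 14.9 to 82.1 TPM in the other ENT1KO libraries, and Cdh5 alone held 58.4 TPM. Per 1000 TPM of the macrophage list without Ccr2 the 9 genes held 38.0 TPM there. In replicate 15 both list sums were the lowest of all libraries, at 6.68 TPM for fibroblast and tumour genes and 121 TPM for macrophage genes, and the part of these low sums in the ratios was not tested.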

How the results depend on the processing

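Over 129 refits of the 9 tested genes, 123 kept direction and side of the threshold and 6 did not pass, 4 of them for Pecam1 and 1 each for Kdr and Vwf, as given above. None changed sign. The number of members lower in ENT1KO was 2 with a filter of 5 TPM, which leaves Pecam1, Eng and Egfl7 in the test, and 8 when any 1 library was left out. The number higher was 0 on normalized counts and ran from 0 to 1 when 1 library was left out. Genes called higher among all tested ran from 2315 (without WT replicate 2) to 3748 when 1 library was left out, against 3800 with all 7. On normalized counts 42.9% of called genes were higher, against 54.4% on TPM. Relative to the identity list, Kdr had an exact permutation p of 0.0571 on normalized counts, and with 1 library left out no split can pass 0.05. Among 624 refits of 42 named genes of other lists, 19 lost and 6 gained a call, and 2 changed sign, both without ENT1KO replicate 15 and both uncalled throughout: Klf2 at -0.012 (limma adjusted p = 0.968), up to 0.43 with another library left out, and Nrp1 at 0.15 (limma adjusted p = 0.508), down to -0.23. Of 330 list counts under alternatives, 23 moved by over 1.5 times. For the lowest genes depth is the limit, with 0 to 17 reads of Esam, Tie1 and Emcn in ENT1KO libraries. Vwf, at 5 to 8 reads, and Egfl7, at 4 to 24 reads, rested on similarly few in ENT1KO. No paired analysis was possible because the groups share no replicate number.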
